A study of Mus musculus with 2 samples.

Results

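Imprinted genes, which are expressed mainly from the maternal or from the paternal copy, were examined in transcriptomes of decitabine (DAC)-treated and control CT26 cells, a mouse colorectal cancer model. A list of 38 mouse imprinted gene symbols was matched through GENCODE mouse release M21 to the Ensembl identifiers of the count tables, and 24 of the 38 were found among the 24223 genes of each table. The other 14 (H19, Phlda2, Peg3, Usp29, Zim1, Peg10, Asb4, Dlk1, Meg3, Rian, Dio3, Magel2, Plagl1 and Ddc) were not analysed here. The CT26 line derives from a chemically induced colon carcinoma of a BALB/c mouse. Cells of the treated group were given 1 μM DAC 3 times at 24 h intervals and were collected after a further 24 h in drug-free medium, and the control cells were handled in parallel without DAC. There was 1 library for each condition, so no difference has a replicate check and no p-value is given.

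Genomic imprinting rests on DNA methylation that is laid down differently in eggs and sperm at imprinting control regions and then copied after each cell division by DNMT1 with its partner UHRF1. Imprinted genes lie in clusters, in which a control region often acts on several genes through a long noncoding RNA or through the insulator protein CTCF. Many of them regulate fetal growth, placental nutrient supply and behavior. As a cytosine analog, DAC is built into replicating DNA and holds DNA methyltransferases there, and methylation thins out over the following divisions. The counts do not separate the parental copies, and DNA methylation was not analysed here.

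Sequencing depth was similar, with 35163420 total counts for DAC and 34221886 for control. Levels are given in CPM, a count divided by the library total after correction by a TMM factor, where 1 CPM corresponds to 37.6 counts for DAC and 32 for control. Genes were called higher (ratio of DAC over control of 2 or more) or lower (0.5 or less) if at least one library reached 1 CPM and if the exact 95% counting interval, printed in parentheses after a ratio, did not cross 1. Intervals cover counting error only. Where control had 0 counts, the ratio is given against 3 counts and the interval, which is taken from the counts as they are, has a lower limit only. Of 12 colon epithelial markers, 10 were analysed and 5 reached 1 CPM. Of the 5, 4 (80%) were higher in DAC and 0 lower, beside 10.8% and 5.29% of all genes past 1 CPM. The summed level of the 10 markers was 262 CPM in DAC and 78.4 CPM in control. Of it the keratin gene Krt8 alone held 118 CPM in DAC and 0.156 CPM in control. Krt8 and the keratin gene Krt19 reached 1 CPM in DAC only. With a minimum of 5 CPM the calls of Krt19 and Lgals4 were lost. Below 1 CPM, the epithelial markers Cdh1 and Vil1 had 9 and 12 counts in DAC, against 0 in control for both, while the mucin gene Muc2 had 6 counts in DAC and 21 in control, a ratio of 0.243 (0.080 to 0.624). The 8 fibroblast markers summed to 4194 CPM in DAC and 9522 CPM in control, of which the fibronectin gene Fn1, the 1 marker called lower, held 1742 CPM in DAC and 6577 CPM in control. Of the 7 fibroblast markers past 1 CPM, 4 had a log2 ratio above 0, and their median was 0.20. Of 8 blood cell markers 2 were analysed, and neither was called. The leukocyte marker Ptprc had 0 counts in DAC and 3 in control. Cd68, a macrophage marker, had 809 counts in DAC and 470 in control, a ratio of 1.47 (1.31 to 1.65). The part of these shifts in the results on imprinted genes was not tested, and in bulk RNA fewer cells expressing a gene and less RNA per cell cannot be told apart.

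The sequence just upstream of the start site is shown for 6 of the imprinted genes that the results turn on. Each window holds the 250 bases before a RefSeq start (GRCm38.p6), 5′ to 3′ on the strand of the gene, with CpG sites in capitals. Where RefSeq gives several starts, the window with the most CpG sites is shown. The reference is a C57BL/6J genome, not BALB/c.
Mkrn3, chr7:62420154-62420403 (minus strand): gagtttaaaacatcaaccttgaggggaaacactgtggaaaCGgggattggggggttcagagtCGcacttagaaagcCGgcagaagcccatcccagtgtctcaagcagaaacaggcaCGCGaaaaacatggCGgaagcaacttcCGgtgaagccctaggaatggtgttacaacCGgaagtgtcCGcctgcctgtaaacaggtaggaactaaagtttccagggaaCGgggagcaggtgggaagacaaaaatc
Ndn, chr7:62348027-62348276 (plus strand): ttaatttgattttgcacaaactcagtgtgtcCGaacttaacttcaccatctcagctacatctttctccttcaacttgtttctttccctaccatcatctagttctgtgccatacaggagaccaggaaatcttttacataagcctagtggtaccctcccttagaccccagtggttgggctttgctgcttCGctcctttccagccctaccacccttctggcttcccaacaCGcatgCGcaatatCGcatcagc
Ube3a, chr7:59228500-59228749 (plus strand): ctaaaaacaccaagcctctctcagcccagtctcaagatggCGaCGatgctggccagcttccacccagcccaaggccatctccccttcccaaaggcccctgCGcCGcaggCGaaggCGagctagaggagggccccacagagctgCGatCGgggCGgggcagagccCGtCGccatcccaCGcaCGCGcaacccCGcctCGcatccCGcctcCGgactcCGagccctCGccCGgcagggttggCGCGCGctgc
Slc38a4, chr15:97031214-97031463 (minus strand): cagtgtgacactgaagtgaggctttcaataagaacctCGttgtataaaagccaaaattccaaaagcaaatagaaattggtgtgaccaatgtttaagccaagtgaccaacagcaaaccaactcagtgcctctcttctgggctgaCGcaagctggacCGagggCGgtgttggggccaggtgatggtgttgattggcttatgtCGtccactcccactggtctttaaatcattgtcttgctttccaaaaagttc
Mest, chr6:30737800-30738049 (plus strand): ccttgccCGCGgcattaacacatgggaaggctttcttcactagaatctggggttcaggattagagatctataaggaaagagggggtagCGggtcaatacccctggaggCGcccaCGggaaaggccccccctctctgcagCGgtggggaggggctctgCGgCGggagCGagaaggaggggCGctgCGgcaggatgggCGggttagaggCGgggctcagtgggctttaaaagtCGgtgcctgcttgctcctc
Kcnq1ot1, chr7:143296548-143296797 (minus strand): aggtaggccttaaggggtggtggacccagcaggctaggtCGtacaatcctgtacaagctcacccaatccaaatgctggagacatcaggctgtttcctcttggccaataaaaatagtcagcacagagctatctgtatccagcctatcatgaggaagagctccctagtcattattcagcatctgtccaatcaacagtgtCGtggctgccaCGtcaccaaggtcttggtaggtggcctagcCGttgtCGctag

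The windows held 10 CpG sites in Mkrn3, 5 in Ndn, 24 in Ube3a, 5 in Slc38a4, 14 in Mest and 5 in Kcnq1ot1. Over all 32851 RefSeq windows of the same length the median was 6 sites and the quartiles were 2 and 16. Of the 24 analysed imprinted genes, 19 matched a RefSeq window, and the median of their most CpG-rich windows was 14 sites. Picking the most CpG-rich window can raise this median, so it is not comparable with the 6 sites of all windows. Ube3a, the gene of the 6 with the densest window, was lower in DAC, and Mkrn3, Slc38a4 and Mest were higher with 10, 5 and 14 sites. A link between the number of CpG sites and the direction of the difference was not tested. The hexamer TGCCGC, which ZFP57 binds when methylated, was searched on both strands. It occurred 2 times in the Mest window and in none of the most CpG-rich windows of the other 18 genes. Counting every window of the 19 genes, 3 of 35 held it, beside 8.68% of all windows of this length. A match is a description of the letters and not a bound site. The RefSeq start of Ndn lies inside the longer GENCODE gene model, as do the Mest and Slc38a4 starts shown.

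Across the 24 genes, expression covered a wide range and most genes were weakly expressed. In the DAC library 12 genes and in the control library 10 genes reached 1 CPM, and the 12 that did so in either library are Slc38a4, Mkrn3, Mest, Ube3a, Kcnq1ot1, Slc22a18, Igf2r, Nnat, Gnas, H13, Impact and Zrsr1. Of these 12, 3 were higher in DAC (Slc38a4, Mkrn3 and Mest), 1 was lower (Ube3a) and 8 were not called. By the same rule 10.8% of the 13545 genes past 1 CPM were higher and 5.29% were lower (16.1% in either direction), beside 25% and 8.33% of the 12, where 1 gene makes a share of 8.33%. The median log2 ratio over the 12 genes was 0.094, with 6 above and 6 below 0, and over all 13545 genes it was -0.018. The 3 higher genes are all among the 7 past 1 CPM that are usually expressed from the paternal copy, where 0 were lower. Of 3 maternally expressed genes past 1 CPM, 0 were higher and 0 lower. The remaining 2, Ube3a and Gnas, are imprinted in some tissues only. Mkrn3 and Mest reached 1 CPM in DAC only, so they entered the 12 through the library where they are higher. With a minimum of 5 CPM, 1 of 8 imprinted genes was higher (Slc38a4), beside 6.34% of all genes. No contrast between the parental groups was tested. Over all 24 genes, 8 had 0 counts in control and at least 1 in DAC, a pattern that 14.5% of all 24223 genes showed, and 3 had 0 in DAC and at least 1 in control, which 6.48% of all genes showed.

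**Figure D1:**
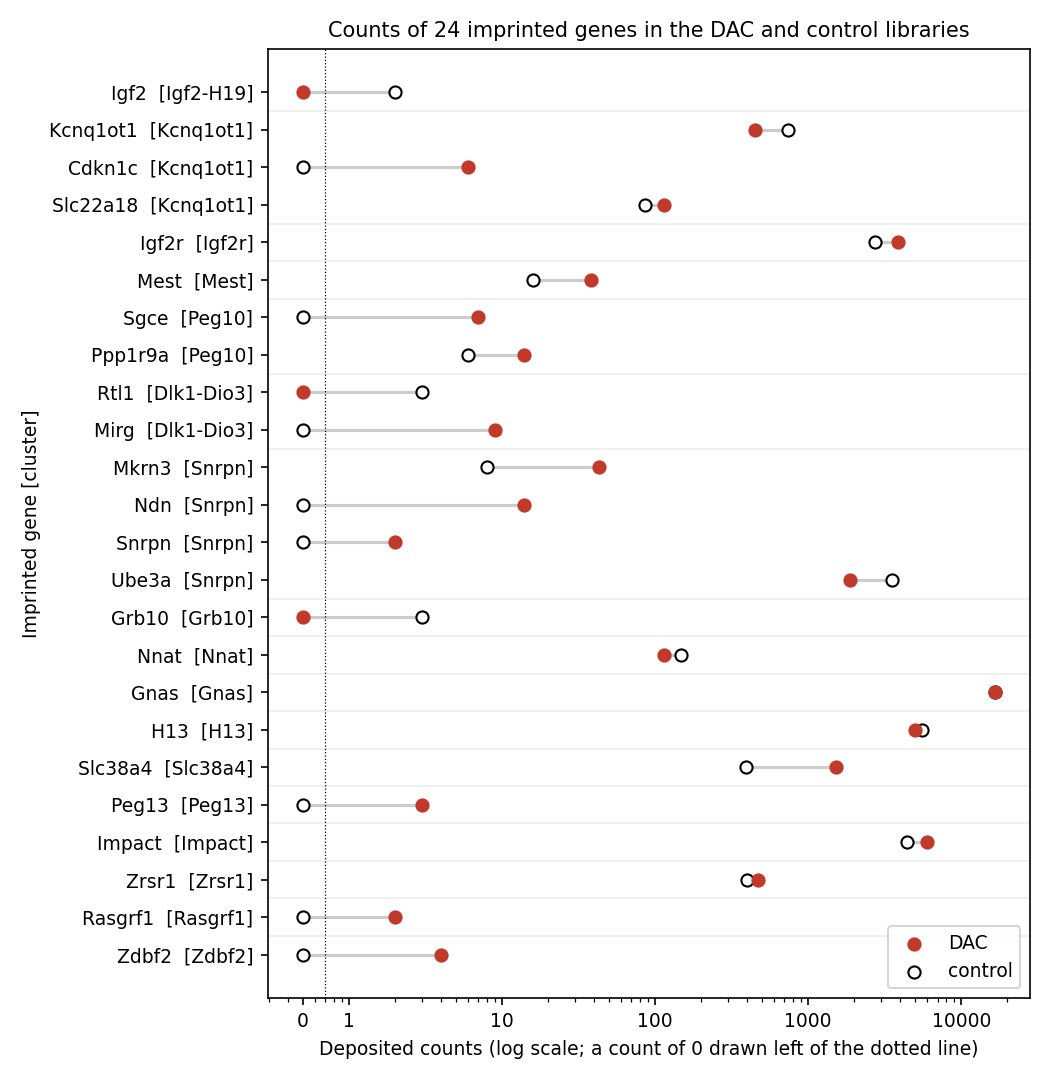
Deposited counts on a log scale (x axis) of the 24 analysed imprinted genes (y axis, cluster in brackets) in the DAC library (red) and the control library (open circles), before scaling for depth. A count of 0 is drawn left of the dotted line. Counts range up to 16628 in DAC and 16611 in control for Gnas, while 8 genes had 0 counts in control and 3 had 0 in DAC.

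Slc38a4, a sodium-coupled transporter of neutral amino acids that is active in placenta and liver, showed the clearest difference. It had 1526 counts in DAC and 390 in control, or 40.6 CPM and 12.2 CPM, a ratio of 3.33 (2.98 to 3.74). It lies on chromosome 15 from 96994820 to 97055956 (GRCm38, minus strand), and 0% of its exon bases overlap another gene. The ratio kept its side of 2-fold under every scaling tried, with log2 ratios from 1.74 to 2.02. Transporters of the same family lie on the same chromosome. Slc38a2, within 500 kb of it, had 35291 counts in DAC and 33067 in control, a ratio of 0.910. Slc38a1 had 353 counts in DAC and 154 in control, a ratio of 1.95 (1.61 to 2.38), just under the 2-fold limit, and it passed 2-fold with library totals (2.23) or after centring on GC content (2.05). Of the 3 genes outside the imprinted lists that lie within 500 kb of Slc38a4 and reached 1 CPM, 0 were called.

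The Snrpn domain on chromosome 7, whose human counterpart is lost in Prader-Willi and Angelman syndromes, held differences in both directions. Mkrn3, a paternally expressed RING-finger ubiquitin ligase that restrains the onset of puberty, had 43 counts in DAC and 8 in control. Its levels were 1.14 CPM in DAC and 0.25 CPM in control, a ratio of 4.58 (2.13 to 11.3), and its DAC level stands just above the 1 CPM minimum. Mkrn3 is a single-exon gene from 62417593 to 62420139 on the minus strand. Ndn, which encodes the growth suppressor necdin and is also paternally expressed, had 14 counts in DAC and 0 in control. Its ratio against 3 counts was 3.98 (interval from 2.83), and it was below 1 CPM. Snrpn, which encodes the spliceosomal protein SmN, had 2 counts in DAC and 0 in control, too few for a ratio. Of the Snrpn exon bases, 34.1% overlap gene models that are not among the counted genes, and how reads there were assigned was not tested. Ndn and Snrpn thus had more counts in DAC at levels below 1 CPM, where 58.3% of all genes had the higher CPM in DAC.

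Ube3a, the ubiquitin ligase gene that is silenced on the paternal copy in neurons and expressed from both copies in most other cells, was the one listed gene called lower. It had 1866 counts in DAC and 3550 in control, or 49.7 CPM and 110.9 CPM, a ratio of 0.448 (0.423 to 0.474). The gene spans 59228750 to 59311536 on the plus strand of chromosome 7. Its call depended on the scaling, with a ratio of 0.512 by library totals, where the median log2 ratio over all genes rises by 0.19, and of 0.577 after centring on GC content. Snhg14, the long noncoding RNA that runs toward Ube3a on the opposite strand and silences it in neurons, had 83 counts in DAC and 15 in control, a ratio of 4.72 (2.70 to 8.80). Of the exon bases of Snhg14, 6.91% overlap Ube3a, and the library kit does not mark strand, so reads there cannot be told apart. With both genes summed the ratio was 0.466 (0.441 to 0.492), but Ube3a holds nearly all of these counts, so the sum does not test the overlap. Of the Ube3a exon bases, 27.3% overlap counted gene models on the opposite strand. These are Snhg14, 9330162G02Rik (60 counts in DAC, 63 in control) and Gm44560 (5 counts in DAC, 4 in control). How reads there were assigned was not tested. Peg12, another paternally expressed gene of the domain, had 3 counts in DAC and 0 in control, too few for a ratio. Atp10a, a phospholipid flippase gene at the far side of Ube3a, had 3488 counts in DAC and 2944 in control, a ratio of 1.01 (0.961 to 1.06). Of these genes only Ube3a was called lower, and only Atp10a and Ube3a exceeded 100 counts in either library.

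**Figure D2:**
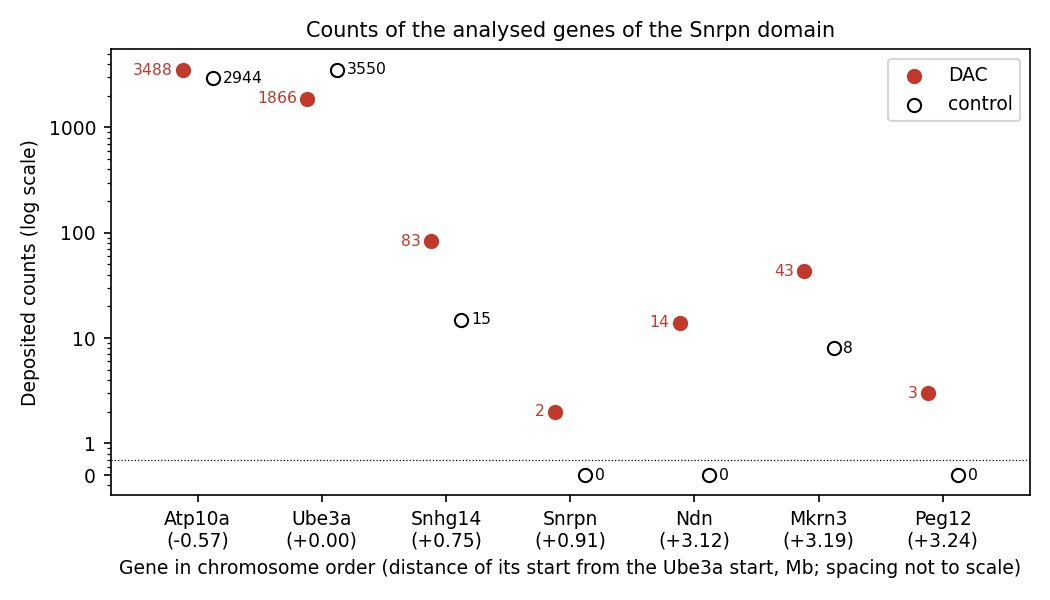
Deposited counts (y axis, log scale, 0 drawn under the dotted line) in the DAC (red) and control (open circles) libraries for the analysed imprinted genes of the Snrpn domain in chromosome order (x axis, with the distance of each start from that of Ube3a in Mb, spacing not to scale). Ube3a has 1866 counts in DAC and 3550 in control, while Snhg14, Snrpn, Ndn, Mkrn3 and Peg12 each have more counts in DAC than in control. Snrpn (2 counts in DAC, 0 in control) and Peg12 (3 in DAC, 0 in control) have too few counts for a ratio.

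Mest, a paternally expressed hydrolase-like gene linked to fetal growth and maternal care in mice, had 38 counts in DAC and 16 in control. Its ratio of 2.02 (1.10 to 3.89) and its DAC level of 1.01 CPM both sit at the edge of the call, which was lost when the interval was taken from counts divided by 3. Of its exon bases 23.1% overlap Copg2, a coatomer subunit gene on the opposite strand that had 1582 counts in DAC and 1771 in control. Copg2 differed in the other direction, with a ratio of 0.761 (0.711 to 0.815). Among the neighbors of Mest, Cep41, a centrosomal protein gene 29798 bp away, was lower, with 259 counts in DAC and 757 in control and a ratio of 0.292 (0.252 to 0.336). Klhdc10, a kelch-domain gene 268368 bp away, was also lower, with a ratio of 0.436 (0.415 to 0.458).

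In the Kcnq1ot1 cluster on distal chromosome 7 the noncoding RNA was lower by just under 2-fold with TMM factors, and no protein-coding gene described here was called. Kcnq1ot1, the paternally expressed antisense RNA whose promoter lies in the imprinting control region and which silences its neighbors in cis, had 449 counts in DAC and 737 in control. Its levels were 11.9 CPM in DAC and 23.0 CPM in control, a ratio of 0.519 (0.461 to 0.585), outside the call by a small margin. The margin depended on the scaling. The log2 ratio of Kcnq1ot1 was -0.95 with TMM factors, -0.75 by library totals and -0.66 after centring on GC content. GENCODE annotates it as 1 exon of 93092 bases. Cdkn1c, the maternally expressed CDK inhibitor p57, had 6 counts in DAC and 0 in control. Its ratio against 3 counts was 1.70 (interval from 1.003). Of the Cdkn1c exon bases, 30.7% overlap a gene model that is not among the counted genes. Slc22a18, a maternally expressed transporter gene, had 115 counts in DAC and 86 in control, a ratio of 1.14 with an interval that includes 1 (0.854 to 1.52). Several genes at the borders of the cluster were well expressed and not called. Cd81, a tetraspanin, had 6533 counts in DAC and 5051 in control, a ratio of 1.10 (1.06 to 1.14). Nap1l4, a histone chaperone, and Osbpl5, an oxysterol-binding protein, had ratios of 0.716 (0.688 to 0.745) and 0.793 (0.749 to 0.839). Tnfrsf22 had 3975 counts in DAC and 1801 in control, a ratio of 1.88 (1.78 to 1.99). Tnfrsf23 had 4452 counts in DAC and 2364 in control, a ratio of 1.60 (1.53 to 1.69). Both were under the 2-fold limit, which Tnfrsf22 passed with library totals (2.15) or after centring on GC content (2.02).

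The growth factor axis of imprinting was represented by Igf2, its clearance receptor Igf2r and the signaling adaptor Grb10. Igf2, the paternally expressed fetal growth factor, had 0 counts in DAC and 2 in control, which is at or under the floor of 3 counts in both libraries. Of the Igf2 exon bases, 64.5% overlap gene models that are not among the counted genes. How reads there were assigned was not tested, so its low counts may understate its level. Igf2r, the maternally expressed receptor that delivers IGF2 to lysosomes, had 3835 counts in DAC and 2742 in control, a ratio of 1.19 (1.13 to 1.25), and Airn, the paternal antisense RNA that silences it in the embryo, had 23 counts in DAC and 29 in control. Grb10, which dampens insulin and IGF signaling, had 0 counts in DAC and 3 in control. Of 18 further genes of the IGF axis, 14 were analysed and 12 reached 1 CPM, with 2 (16.7%) higher and 1 (8.33%) lower in DAC, beside 10.8% and 5.29% of all genes. Their median log2 ratio was 0.12. Igfals, which encodes the acid-labile subunit of circulating IGF complexes, had 40 counts in DAC and 0 in control. Its ratio against 3 counts was 11.4 (interval from 8.82). Pappa2, a protease that cleaves IGF binding proteins, had 50 counts in DAC and 15 in control, a ratio of 2.84 (1.57 to 5.45). Igf2bp3, an oncofetal protein that binds Igf2 mRNA, had 47 counts in DAC and 139 in control, a ratio of 0.288 (0.202 to 0.404). None of these 3 reached 5 CPM in either library. Igfbp4, an IGF binding protein and the most abundant of the list, had 8102 counts in DAC and 4640 in control, a ratio of 1.49 (1.44 to 1.54), and the receptor gene Igf1r had a ratio of 1.01 (0.965 to 1.05).

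Several of the abundant imprinted genes were not called. Gnas, the locus of the stimulatory G protein subunit, was the most abundant, with 16628 counts in DAC and 16611 in control, a ratio of 0.853 (0.835 to 0.872). Per kb of exon, Gnas stood at 39.6 CPM in DAC and 46.4 CPM in control, and Impact, a paternally expressed inhibitor of the kinase GCN2, at 31.1 CPM in DAC and 26.8 CPM in control. These 2 genes led the list on this scale in both libraries. Impact had 5998 counts in DAC and 4407 in control, a ratio of 1.16 (1.12 to 1.21). H13, the signal peptide peptidase gene, had 4953 counts in DAC and 5547 in control, a ratio of 0.761 (0.732 to 0.791). Mcts2, a paternally expressed retrogene in an intron of H13, had 379 counts in DAC and 209 in control, a ratio of 1.55 (1.3 to 1.84). For Gnas, Impact, H13 and Mcts2 the counting interval excluded 1, and the size of the difference stayed below 2-fold.

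Nnat, the paternally expressed proteolipid gene neuronatin in an intron of Blcap, had 115 counts in DAC and 147 in control, a ratio of 0.667 (0.518 to 0.857). Blcap, its host, had 2084 counts in DAC and 1708 in control, a ratio of 1.04 (0.975 to 1.11). Zrsr1, a paternally expressed retrogene for a splicing factor related to U2AF, had 469 counts in DAC and 400 in control, a ratio of 0.999 (0.873 to 1.14). Its host Commd1, a gene of copper and NF-κB regulation on the opposite strand, was called lower. It had 1037 counts in DAC and 1994 in control, a ratio of 0.443 (0.411 to 0.478). By library totals the ratio of Commd1 was 0.506 and the call was lost. In the same place Gm28048, a gene model on the strand of Commd1 that runs on into B3gnt2, had 1720 counts in DAC and 41 in control, a ratio of 35.8 (26.2 to 50.001). Of its exon bases, 10.7% overlap Commd1 and 89.2% overlap B3gnt2, a glycosyltransferase gene that was itself lower (583 counts in DAC, 1691 in control). The counts of B3gnt2, Commd1 and Gm28048 together were 3340 in DAC and 3726 in control, a ratio of 0.764 (0.729 to 0.801), inside 2-fold. How reads were divided among these models was not tested, and their single calls are uncertain.

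**Figure D3:**
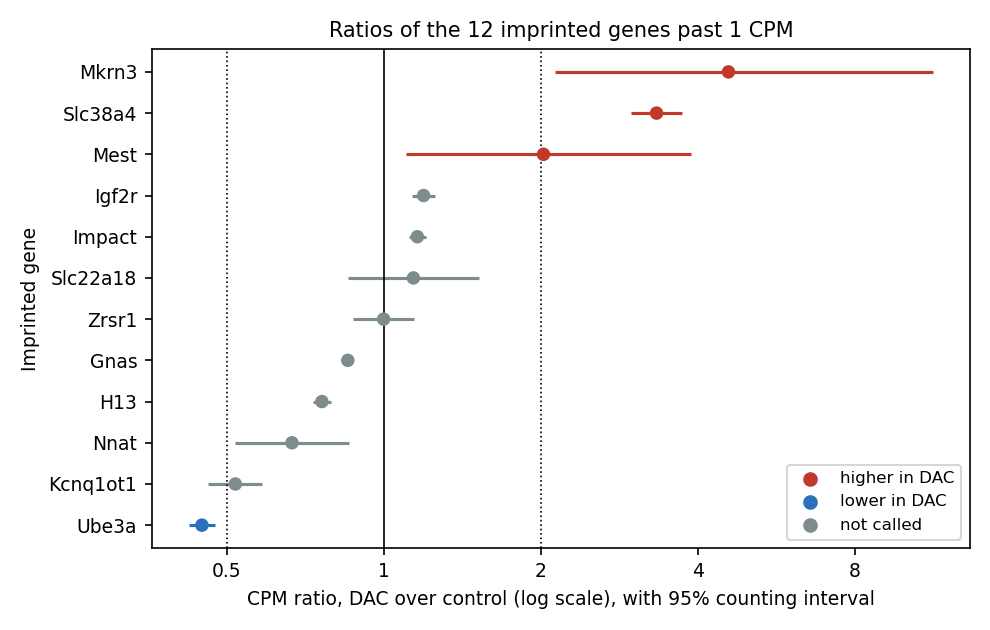
Ratio of DAC to control CPM (x axis, log scale) of the 12 imprinted genes that reached 1 CPM in either library, as points with exact 95% counting intervals (lines, hidden by the point for Gnas). A ratio of 1 is drawn as a solid line, and 0.5 and 2 as dotted lines. Mkrn3 (4.58), Slc38a4 (3.33) and Mest (2.02) lie to the right of 2, Ube3a (0.448) lies left of 0.5, and Kcnq1ot1 (0.519) lies just inside it.

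The other 12 imprinted genes stayed below 1 CPM in both libraries. Of these, 8 (66.7%) had 0 counts in control and at least 1 in DAC, and 3 (25%) had 0 in DAC and at least 1 in control. Among all 10678 genes below 1 CPM these shares were 31.6% and 14.6%. More CPM in DAC than in control was found for 9 of the 12 (75%), against 58.3% of all genes below 1 CPM. The genes at 0 in control reached at most 14 counts in DAC, and those at 0 in DAC at most 3 in control, so these shares rest on few reads. The count tables list no gene with 0 counts in both libraries, which shapes all of these shares.

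Several of the 12 have roles in development. Sgce, which encodes epsilon-sarcoglycan and is paternally expressed, had 7 counts in DAC and 0 in control. Its ratio against 3 counts was 1.99 (interval from 1.23). Ppp1r9a, the neuronal actin-binding protein neurabin, from the same cluster on chromosome 6, had 14 counts in DAC and 6 in control, a ratio of 1.99 whose interval includes 1 (0.718 to 6.31). In the Dlk1-Dio3 cluster, the maternally expressed microRNA host Mirg had 9 counts in DAC and 0 in control. The Mirg ratio against 3 counts was 2.56 (interval from 1.68). The retrotransposon-derived placental gene Rtl1, which is expressed from the paternal copy of the same cluster, had 0 counts in DAC and 3 in control. Zdbf2, a paternally expressed zinc finger gene, had 4 counts in DAC and 0 in control. Its counting interval, from 0.563, includes 1. Peg13, a paternally expressed noncoding RNA in an intron of Trappc9, had 3 and Rasgrf1, a Ras exchange factor gene, had 2 counts in DAC, against 0 in control for both.

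A list of 62 further mouse genes described as imprinted, including neighbors of the clusters, was set beside the 24 genes. Of these 41 were analysed and 30 reached 1 CPM, of which 4 (13.3%) were higher and 2 (6.67%) lower in DAC, beside 10.8% and 5.29% of all genes. Their median log2 ratio was 0.012. The higher genes were Gab1, Smoc1, Snhg14 and Pde4d. Gab1, a docking protein of receptor tyrosine kinases that is imprinted in mouse placenta, had 130 counts in DAC and 0 in control. Its ratio against 3 counts was 36.9 (interval from 29.6). Smoc1, a matrix glycoprotein gene, had 81 counts in DAC and 3 in control, a ratio of 23.0 (7.60 to 113.9). Pde4d, a cAMP phosphodiesterase, had 120 counts in DAC and 47 in control, a ratio of 2.18 (1.54 to 3.12). The lower genes were Commd1 and Cobl, an actin nucleator gene of the Grb10 cluster that had 38 counts in DAC and 348 in control, a ratio of 0.093 (0.065 to 0.130). Gab1 and Smoc1, like Slc38a4, are imprinted in the mouse through histone methylation inherited from the egg, and were grouped here after their values were seen. Sfmbt2 and Jade1, which share that mode, were not called, with ratios of 0.642 (0.517 to 0.796) and 0.874 (0.809 to 0.945). Ago2, of small RNA silencing and the most abundant of the list, had a ratio of 0.746 (0.725 to 0.767). None of the 4 higher genes reached 5 CPM in either library.

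A list named imprint maintenance factors here held 26 genes, including the TET enzymes, which oxidize methylcytosine and do not keep it. Of the 26, 24 were analysed and 22 reached 1 CPM. In DAC 0 were higher and 1 (4.55%) was lower, beside 10.8% and 5.29% of all genes, and the median log2 ratio was -0.026. Dnmt1, the maintenance methyltransferase, had 8614 counts in DAC and 7385 in control, a ratio of 0.994 (0.964 to 1.03). The factors below 1 CPM were Tet1, with 11 counts in DAC and 0 in control, and Dnmt3l, with 28 counts in DAC and 14 in control. Tet2, which oxidizes methylcytosine, was the lower one, with 777 counts in DAC and 1905 in control and a ratio of 0.348 (0.319 to 0.378). Zfp57, the zinc finger protein that binds methylated imprinting control regions, had 881 counts in DAC and 1026 in control, a ratio of 0.732 (0.668 to 0.801). Its relative Zfp445 had a ratio of 0.682 (0.652 to 0.714), and their corepressor Trim28 had 11320 counts in DAC and 5741 in control, a ratio of 1.68 (1.63 to 1.73). Uhrf1, which guides DNMT1 to newly copied DNA, had a ratio of 1.67 (1.61 to 1.74) and Ctcf 0.976 (0.930 to 1.02). Smchd1, a chromatin protein needed at some imprinted clusters, had a ratio of 0.580 (0.557 to 0.604), and the heterochromatin protein gene Cbx5, the most abundant of the list, 0.792 (0.776 to 0.809).

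The 208 counted genes within 500 kb of an analysed imprinted gene and in neither imprinted list served as local background. Of these 97 reached 1 CPM, and 9 (9.28%) were higher and 5 (5.15%) lower in DAC, beside 10.8% and 5.29% of all genes. Their median log2 ratio was -0.042. Higher neighbors near Igf2 included Syt8, a synaptotagmin gene (41 counts in DAC, 6 in control), and Gm49369 (159 in DAC, 11 in control), whose exon bases overlap Ctsd by 79.0%. Near Igf2r, Pnldc1, an exonuclease gene of piRNA processing, had 103 counts in DAC and 7 in control, a ratio of 12.5 (5.87 to 31.97). Near H13, the forkhead gene Foxs1 had 59 counts in DAC and 5 in control, a ratio of 10.1 (4.07 to 32.1). Near Sgce, Gm44380 had 40 counts in DAC and 2 in control. Col1a2, a collagen gene that is the most abundant neighbor and one of the fibroblast markers, had a ratio of 0.589 (0.581 to 0.597). The lower neighbors were B3gnt2, Cep41, Klhdc10, Acat3 and Tmem17. Gm28048 is among the higher neighbors, and its call and that of B3gnt2 are uncertain, as described above. Of the Acat3 exon bases, 23.5% overlap Tcp1, which had 20453 counts in DAC and 13119 in control.

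**Figure D4:**
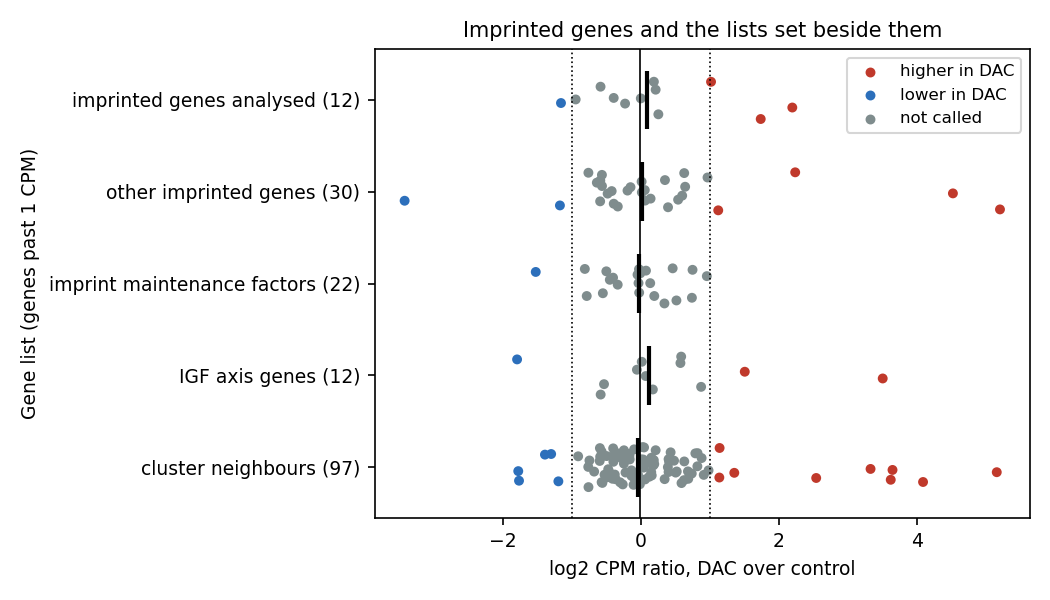
Log2 ratio of DAC to control CPM (x axis) of each gene past 1 CPM in the 24 analysed imprinted genes and the 4 lists set beside them (y axis, number past 1 CPM in parentheses, points spread vertically for view). Black bars mark medians, the solid line the median of all genes (-0.018) and the dotted lines 2-fold differences. The median of the imprinted genes is 0.094, with 3 genes higher and 1 lower, and genes with 0 counts in control are placed against 3 counts.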

How the data were processed

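RNA-seq counts of 1 DAC-treated and 1 control CT26 library were analysed. The authors deposited whole-number counts per Ensembl gene without normalization. Per the submitters' processing notes, mm10 was used with StringTie 1.3.1c, STAR 2.5.3a, Cufflinks, DESeq, FastQC and Trim Galore, whereas the study's methods describe poly-T selection, a TruSeq RNA kit, TopHat, Bowtie and CASAVA. The counting tool was not given in the sources used here. A count of exactly 3 was found for 1240 genes in DAC and 1176 in control, and of 4 for 650 in DAC and 596 in control. The source of this break was not tested.

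Symbols, coordinates and exon overlaps came from GENCODE M21 on GRCm38, the assembly of mm10 (24122 identifiers matched, 101 did not). TMM factors (1.07 for DAC, 0.936 for control) came from edgeR 4.0.16. Ratios and Clopper-Pearson intervals were computed with scipy 1.17.1. In ratios against 0 the count was set to 3, which equals 0.0937 CPM in control. The rule was run on simulated counts that varied by counting error only. Such a run cannot show how often the rule would call genes between replicate cultures. Named genes were all listed imprinted genes and, of each other list and the neighbors, the most abundant gene and the called genes farthest from a ratio of 1 (up to 6 in each direction). Other genes were named for their place in a cluster or their role, after their values were seen, and not every gene the rule names is described. The imprinted genes and the lists were chosen with earlier results of these data known. Alternatives were scaling by upper-quartile factors, by size factors of DESeq2 1.42.0 or by library totals, other CPM minimums and folds, counts divided by 3 before the interval, centring in 20 bins of GC content, and leaving out genes with overlapping exons or at least 10% of 50-base stretches shared with other genes. For the lists beside the imprinted genes they were added after seeing the data.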

Additional observations from a re-analysis of the deposited data

How the results depend on the processing

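Of the 12 imprinted genes past 1 CPM, 3 were higher and 1 lower with TMM, DESeq2 or upper-quartile factors. Ube3a is the lower one. By library totals, after GC centring and at 4-fold, 0 of 12 were lower, beside 3.37%, 4.43% and 0.827% of all genes. Among the 5 genes without overlapping exons or shared sequence 0 were lower. At 1.5-fold 2 of 12 were lower (with Kcnq1ot1), beside 15.2% of all genes. With a minimum of 5 CPM, 1 of 8 was higher (Slc38a4), and at 4-fold 1 of 12 (Mkrn3). Intervals from counts divided by 3 left 2 of 12 higher, and with no minimum 5 of 24 were higher (Ndn and Mirg added). Of all genes 6.34%, 4.27%, 10.1% and 11% were higher in these 4 settings. The median log2 ratio of the imprinted genes, 0.094, ranged up to 0.285 by library totals and was -0.12 with a minimum of 5 CPM. The median of all genes, -0.018, moved in the same directions, to 0.177 by library totals and to -0.062 with a minimum of 5 CPM. By library totals, where 13.9% of all genes were higher and 3.37% lower, 1 of 30 other imprinted genes was lower, 1 of 22 imprint maintenance factors (Dnmt3b) was higher and 14 of 97 neighbors were higher. With a minimum of 5 CPM, where 6.34% of all genes were higher and 4.17% lower, 0 of 25 other imprinted genes were higher, 0 of 9 IGF axis genes were higher and 0 lower, and 2 of 75 neighbors were higher and 3 lower. No paired analysis was possible because each condition has 1 library, and leaving out a replicate was not possible for the same reason. Depth limits the 12 genes below 1 CPM, where 0 counts in control cannot be told from up to 3.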
